A study of Mus musculus with 11 samples.

Results

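The Rosa26 locus of the mouse is represented in the deposited count table by 3 of its 22600 genes: the noncoding RNA Gt(ROSA)26Sor and its 2 protein-coding neighbours, Thumpd3 and Setd5. They were found by their symbols, as the genes at the locus that carries the toxin cassette in this model. They were also selected on their Control and BMAd-DTA counts in these libraries, above all the uneven counts of Gt(ROSA)26Sor, so the levels below are a description and carry no test. The distal tibia, taken whole, had been profiled in 4 Control and 7 BMAd-DTA mice by stranded, paired-end mRNA sequencing, with a library for each mouse. All mice were labelled C57BL6/SJL, 24 weeks of age and fed ad libitum.

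In both groups the mice carried Osterix-FLPo, a recombinase driven by the Osterix gene (Sp7) of bone-forming cells, and FAC, a Cre recombinase at the Adipoq gene that works only after FLPo has turned it into the reading direction. The pair restricts Cre mainly to bone marrow adipocytes (BMAds), and its efficiency is below complete. BMAd-DTA mice additionally carried ROSA-DTA, an allele in which a loxP-flanked STOP cassette holds back the diphtheria toxin A chain until Cre removes it. The Control mice were labelled BMAd-WT. Since they carried both recombinases as well, a mouse with ROSA-DTA would have had the BMAd-DTA genotype. By design the Control mice were thus without that allele. No genotyping result beyond the labels is given in the sources used here. The tissue was whole bone with its marrow, so every value is a mixture over many cell types, and fewer cells of a type and less RNA per cell cannot be told apart. Cassette sequence is not a gene of the count table and was not analysed here.

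Gt(ROSA)26Sor is a spliced long noncoding RNA that was found by gene trapping in embryonic stem cells. Its promoter is active in nearly all tissues, and transgenes aimed at the locus are usually placed in the intron behind its first exon, where that promoter can drive them. Thumpd3 encodes a methyltransferase that, with its partner TRMT112, methylates a guanosine in tRNA. Setd5 encodes a SET-domain protein of chromatin that binds the HDAC3 and NCoR corepressor and the PAF1 elongation complex.

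The 3 genes lie side by side on chromosome 6 (GRCm38, GENCODE M21). Gt(ROSA)26Sor (ENSMUSG00000086429) is annotated as an antisense noncoding gene on the minus strand at chr6:113067428-113077333. Setd5 (ENSMUSG00000034269) starts 31 bases away on the plus strand and runs to the other side, at chr6:113077365-113153435, so the pair is divergent. Thumpd3 (ENSMUSG00000030264) is on the plus strand at chr6:113046225-113068273 and runs toward Gt(ROSA)26Sor, so that the ends of both genes overlap by 846 bases. Of these, 145 bases are exonic in both, at chr6:113067674-113067818. All 145 are coding sequence of exon 10, the last exon of the transcript Thumpd3-201. No exonic base was shared with Setd5.

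**Figure D1:**
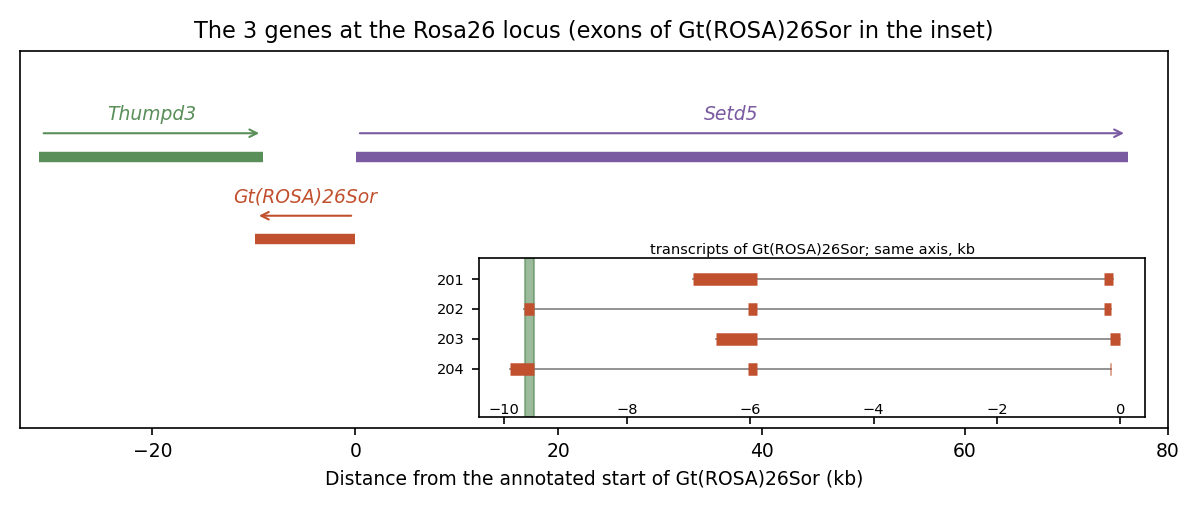
The 3 genes at the Rosa26 locus, drawn to scale along the distance in kb from the annotated start of Gt(ROSA)26Sor, with arrows for the direction of transcription. The inset shows the exons of the 4 Gt(ROSA)26Sor transcripts as blocks, and the green band marks the 145 exonic bases shared with Thumpd3, which lie in the last exon of 2 of them.

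Gt(ROSA)26Sor has 4 annotated transcripts. They use 2 different ends of the first exon, and the second exon of all 4 begins at the same base, 113071435. The intron between the first exons and that base is 5632 bases long in Gt(ROSA)26Sor-202, and 2 transcripts go on to a further exon within Thumpd3, Gt(ROSA)26Sor-202 being one of them. The exons of Gt(ROSA)26Sor-202 and the first exon of Gt(ROSA)26Sor-203 are printed here because a count of Gt(ROSA)26Sor is a count of read pairs on such sequence, and because the capitals mark the bases that also lie, on the other strand, in an exon of Thumpd3. They are written 5′ to 3′ on the minus strand of GRCm38. The exons are chr6:113077174-113077333, chr6:113077068-113077177, chr6:113071294-113071435 and chr6:113067659-113067818, in the order of the lines.
Gt(ROSA)26Sor-203 exon 1: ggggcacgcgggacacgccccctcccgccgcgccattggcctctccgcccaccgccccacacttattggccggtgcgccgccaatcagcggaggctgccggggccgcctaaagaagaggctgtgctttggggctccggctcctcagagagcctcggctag
Gt(ROSA)26Sor-202 exon 1: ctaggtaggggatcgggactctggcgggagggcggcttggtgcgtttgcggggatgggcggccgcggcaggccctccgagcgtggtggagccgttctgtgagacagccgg
Gt(ROSA)26Sor-202 exon 2: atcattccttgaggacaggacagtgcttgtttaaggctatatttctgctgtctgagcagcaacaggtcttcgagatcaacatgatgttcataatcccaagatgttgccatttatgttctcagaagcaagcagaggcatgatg
Gt(ROSA)26Sor-202 exon 3: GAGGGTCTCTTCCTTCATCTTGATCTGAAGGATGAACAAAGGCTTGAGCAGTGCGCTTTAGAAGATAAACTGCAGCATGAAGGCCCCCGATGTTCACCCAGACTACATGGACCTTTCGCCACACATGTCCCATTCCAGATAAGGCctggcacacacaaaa
The first exons were rich in G and C (71.9% and 71.8%), and the later exons were not (43.0% and 49.4%). In the third exon, 145 of 160 bases are shared with Thumpd3, so that only the strand of a read pair tells which gene it came from there.

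Gt(ROSA)26Sor was nearly silent in the Control libraries and uneven in the BMAd-DTA libraries. The Control libraries 1 to 4 held 7, 2, 4 and 3 read pairs on its strand. The BMAd-DTA libraries 1 to 7 held 9, 5, 25, 91, 83, 5 and 0 read pairs. Replicates 4 and 5 of BMAd-DTA were high, replicate 3 was intermediate, and the remaining 4 lay at or near the Control level.

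As CPM, counts scaled to a common library size, the Control libraries lay between 0.118 and 0.386, with a mean of 0.224 ± 0.119 (SD, n = 4). The BMAd-DTA libraries lay between 0 and 4.97, with a median of 0.53 and a mean of 1.75 ± 2.17 (SD, n = 7). In CPM, 4 of 7 BMAd-DTA libraries were above every Control library and 1 was below all of them, so the groups overlapped. The mean of BMAd-DTA was 7.83-fold that of Control, a log2 ratio of 2.97, but with the 2 high libraries left out the log2 ratio was 1.18.

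Counting error alone set wide limits on the low values. The exact 95% Poisson intervals of the Control counts reached from 0.242 to 14.4 read pairs and all overlapped, and those of BMAd-DTA replicates 1, 2 and 6, between 1.62 and 17.1, overlapped them. The count of 0 in BMAd-DTA replicate 7 allows a level of up to 0.16 CPM if 3 counts are taken as the limit of a count of 0, and its exact interval reaches 3.69 counts, so a level as low as that of Control replicates 2 and 4 was not detectable as different there. Ordered by level, replicate 3 (16.2 to 36.9 read pairs) stood above every Control interval. Its interval overlapped that of BMAd-DTA replicate 1 (4.12 to 17.1), the next below it. Replicates 5 (66.1 to 103) and 4 (73.3 to 112) stood above replicate 3, and replicates 5 and 4 did not differ from each other beyond counting error. All these intervals cover counting error only.

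The spread among Control libraries was close to counting error, with a variance of the counts 1.17 times their mean, against 48.9 times in BMAd-DTA. On the log2 CPM scale the SD of Gt(ROSA)26Sor over the 7 BMAd-DTA libraries was 2.03. Among 2717 genes with a mean count within a factor of 2 of its own mean of 21.3, the median SD was 0.505 and 17 genes had a larger one. Over the 4 Control libraries its SD was 0.487, near the median of 0.504 for the same genes. These ranks describe a gene that was picked for its unevenness.

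Because of this pattern Gt(ROSA)26Sor did not enter the fit across genes. The filter on low counts asks for 10 counts, here 0.57 CPM, in at least 4 libraries, and Gt(ROSA)26Sor reached it in 3. Of the 3 members, 2 passed.

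**Figure D2:**
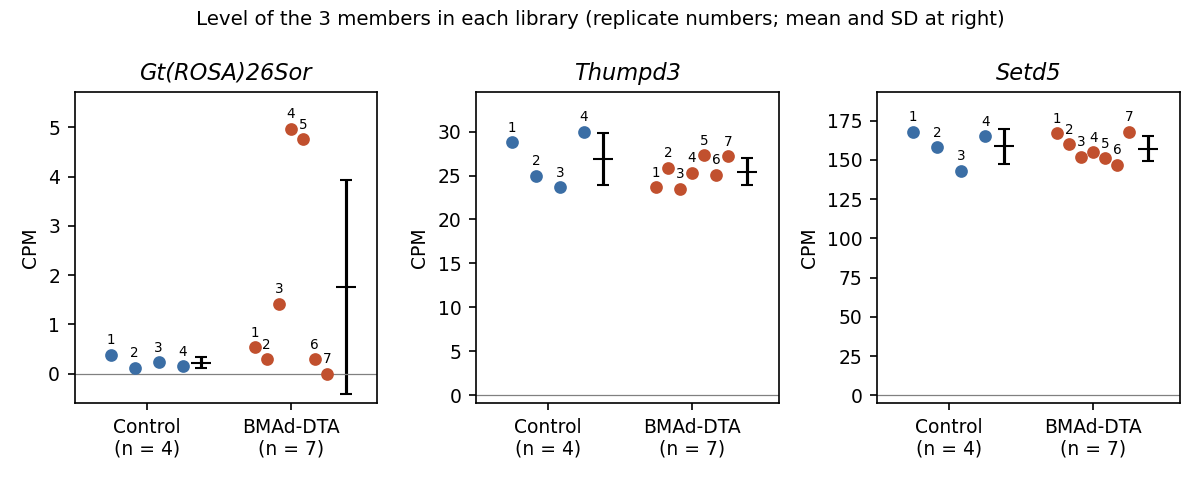
CPM of Gt(ROSA)26Sor, Thumpd3 and Setd5 in each of the 4 Control and 7 BMAd-DTA libraries, 1 point per mouse with its replicate number, and the mean with SD at the right of each group. BMAd-DTA replicates 4 and 5 stand at 4.97 and 4.76 CPM for Gt(ROSA)26Sor, while the points of both groups overlap for Thumpd3 and Setd5.

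The protein-coding neighbours were even. Thumpd3 held 523, 424, 401 and 579 read pairs in Control libraries 1 to 4, and 403, 452, 415, 464, 476, 428 and 510 in BMAd-DTA libraries 1 to 7. Its mean was 26.9 ± 3.02 CPM (SD, n = 4) in Control and 25.5 ± 1.49 CPM (SD, n = 7) in BMAd-DTA. The groups overlapped, and BMAd-DTA replicates 4 and 5 (25.3 and 27.3 CPM) lay within the Control range. The fitted log2 difference, BMAd-DTA minus Control, was -0.08 ± 0.082 (SE), with a 95% interval from -0.26 to 0.10.

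Setd5 held 3052, 2688, 2412 and 3189 read pairs in the Control libraries and 2839, 2791, 2672, 2836, 2638, 2497 and 3145 in the BMAd-DTA libraries. Its mean was 159 ± 11.5 CPM (SD, n = 4) in Control and 157 ± 8.16 CPM (SD, n = 7) in BMAd-DTA. Here too the groups overlapped, and replicates 4 and 5, at 155 and 151 CPM, were neither the highest nor the lowest of their group. The log2 difference was -0.01 ± 0.062 (SE), with a 95% interval from -0.15 to 0.12.

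Both genes varied within the range of the reference genes. The coefficient of variation over all 11 libraries was 8.25% for Thumpd3 and 5.68% for Setd5. Of 16 reference genes, 6 varied more than Thumpd3 and 13 more than Setd5. The narrowest of the 16 was Sdha, a subunit of succinate dehydrogenase, at 3.61%, and the widest was B2m, the light chain of class I MHC, at 28.7%. The ratio of Thumpd3 to Setd5 CPM was between 0.158 and 0.182 in Control and between 0.142 and 0.18 in BMAd-DTA libraries. Replicates 4 and 5, where Gt(ROSA)26Sor was high, had ratios of 0.164 and 0.18.

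Per length of annotated exon, the order of levels was Setd5, Thumpd3 and Gt(ROSA)26Sor in every library. Setd5 lay between 7.77 and 9.17 CPM per kb of exon, Thumpd3 between 3.59 and 4.58, and Gt(ROSA)26Sor between 0 and 2.93. In BMAd-DTA replicate 4 the level of Gt(ROSA)26Sor per kb was 2.93 beside 3.87 for Thumpd3. In Control it averaged 0.132 per kb beside 4.1 for Thumpd3. These lengths join the exons of all annotated transcripts, so a level per kb is low for a gene of which few transcripts are made.

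The strand of the read pairs separated Gt(ROSA)26Sor from Thumpd3. On the other strand of Gt(ROSA)26Sor, which is the strand of Thumpd3, every library held between 68 and 109 read pairs: 102, 88, 72 and 77 in Control libraries 1 to 4, and 75, 78, 82, 68, 69, 76 and 109 in BMAd-DTA libraries 1 to 7. These other-strand counts were 13.3% to 21.4% of the Thumpd3 count of the same library. They did not rise with the level of Gt(ROSA)26Sor, since BMAd-DTA replicates 4 and 5 held the lowest and the next lowest. Replicate 7, with 0 pairs on the gene's own strand, held the highest. An inverse relation of the strands was not tested.

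The share of Gt(ROSA)26Sor's own strand among all pairs over it was 2.22% to 6.42% in the Control libraries. It was 57.2% (exact Clopper-Pearson 95% interval, 49.2% to 65%) in BMAd-DTA replicate 4, 54.6% (46.3% to 62.7%) in replicate 5 and 23.4% (15.7% to 32.5%) in replicate 3. In replicate 7 it was 0%, with an upper limit of 3.33%. In the remaining BMAd-DTA libraries it was 6.02% to 10.7%.

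On the strand opposite to Thumpd3, which is that of Gt(ROSA)26Sor, 14 read pairs were counted in BMAd-DTA replicate 4, 8 in replicate 5 and 2 in Control replicate 2, and 0 in the other 8 libraries. BMAd-DTA replicate 3, with 25 pairs of Gt(ROSA)26Sor, was among those at 0. A pair counted on that strand of a Thumpd3 exon touches the stretch that the capitals mark above, or other exonic bases of Thumpd3. These can lie in the same exon or in another one. Setd5 had between 0 and 14 pairs on its other strand, with the highest count in Control replicate 3 and 3 and 6 in BMAd-DTA replicates 4 and 5.

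Counting without strand changed both overlapping genes. Thumpd3 lost between 52 and 94 read pairs per library, which was 11.2% to 18.6% of its count, since pairs on bases of both genes are then assigned to neither. Gt(ROSA)26Sor then had 14, 9, 8 and 4 pairs in Control, and 15, 8, 30, 91, 86, 17 and 14 in BMAd-DTA libraries 1 to 7, so the library with 0 pairs on the read strand gained 14 from the other strand. The log2 ratio of the group means was then 2.09 instead of 2.97. Setd5 changed by at most 10 pairs.

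**Figure D3:**
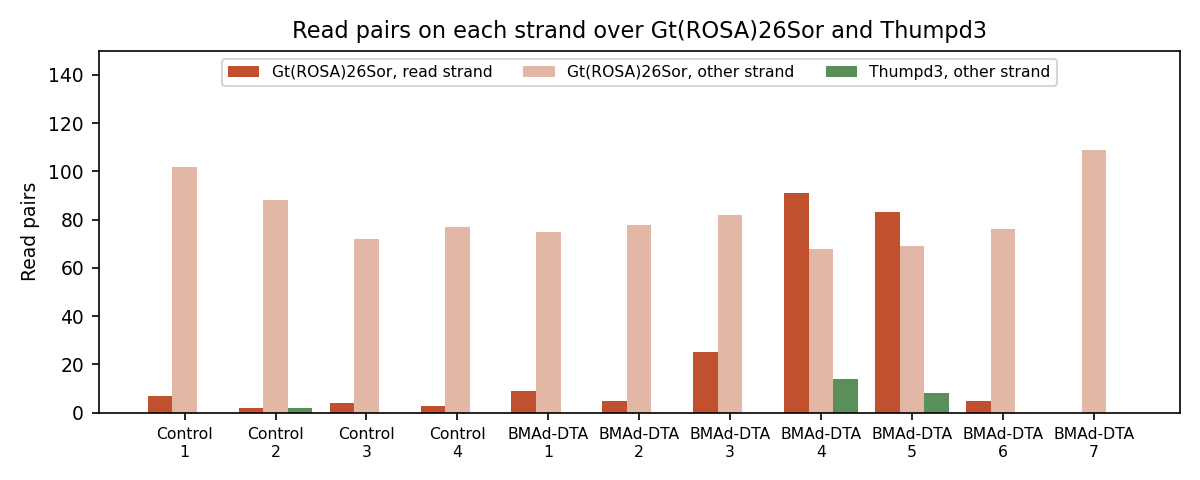
Read pairs per library over Gt(ROSA)26Sor on its own strand (dark) and on the other strand (light), and over Thumpd3 on the other strand (green), as bars from 0. The light bars are 68 to 109 in every library, and the dark bars rise above them in BMAd-DTA replicates 4 and 5 alone.

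The genes that carry the recombinases varied among the BMAd-DTA libraries in other ways. Adipoq, the adipocyte hormone adiponectin, was at 130, 184, 209 and 28.5 CPM in Control libraries 1 to 4 and at 67.3, 7.97, 10.2, 81.3, 115, 109 and 7.19 CPM in BMAd-DTA libraries 1 to 7. BMAd-DTA replicates 4, 5 and 6 had the highest Adipoq levels of their group, and replicate 6 had 5 read pairs of Gt(ROSA)26Sor. Replicate 3, with 25 pairs of Gt(ROSA)26Sor, had 10.2 CPM of Adipoq. The log2 difference of Adipoq was -1.28 ± 0.74 (SE) and did not pass the test (edgeR quasi-likelihood, Benjamini-Hochberg adjusted p = 0.416).

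Sp7, the transcription factor osterix, was between 23.3 and 52.5 CPM in Control and between 66.5 and 128 CPM in BMAd-DTA libraries. The groups did not overlap, which held for 2.81% of the 16496 genes tested. Replicate 3 was the highest and replicate 5 the lowest of BMAd-DTA. The log2 difference was 1.12 ± 0.21 (SE), with an adjusted p of 0.0675 in the edgeR fit, above the threshold of 0.05.

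Levels of cell type markers are given beside the uneven level of Gt(ROSA)26Sor, as the mean log2 CPM of the tested markers of each list. The 13 adipocyte markers scored 5.55 in both BMAd-DTA replicates 4 and 5, the highest of their group, where the others ranged from 3.74 to 5.42. The Control libraries scored 5.38 to 6.29 on the same list and held 2 to 7 pairs of Gt(ROSA)26Sor. The summed level of these markers was 1340 to 2280 CPM in Control and 628 to 1650 CPM in BMAd-DTA, and 1 of the 13 was at 0 in at least 1 library. The 12 skeletal muscle markers scored 3.26 in replicate 4 and 0.06 in replicate 5, over a range of -0.06 to 5.54 in all libraries. The summed level of the muscle markers ran from 16.3 to 1300 CPM in Control and from 17.7 to 1020 CPM in BMAd-DTA, and 2 of the 12 were at 0 in at least 1 library.

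Of the other 10 lists, the osteoblast and osteocyte list stood at 7.93 and 7.95 in replicates 4 and 5, within the 7.82 to 8.56 of BMAd-DTA and above the 6.52 to 7.58 of Control. The chondrocyte list stood at 4.26 and 4.41 in them, within the 4.04 to 4.41 of BMAd-DTA. Neutrophil markers were at 10.55 in replicate 4 and at 10.11 in replicate 5, the lowest of all 11 libraries, where Control ranged from 10.41 to 10.71. Endothelial markers were at 6.49 and 6.41 and macrophage markers at 7.62 and 7.6. Both macrophage values were the highest of the BMAd-DTA group, and the Control libraries lay between 7.48 and 7.58. The marrow stroma list, at 7.03 and 7.06, was also highest in these libraries and within the Control range of 6.56 to 7.1. Erythroid markers were at 8.3 and 8.78, osteoclast markers at 6.23 and 5.65, B lymphocyte markers at 6.4 and 6.42 and T lymphocyte markers at 3.51 and 3.59, each within the range of the other BMAd-DTA libraries except the erythroid 8.78, the highest of the group and within the 8.15 to 9.19 of Control. No correlation of Gt(ROSA)26Sor with these scores was computed over the 7 BMAd-DTA libraries, because replicates 4 and 5 lie far from the rest.

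The wider neighbourhood was examined by position alone, within 1 Mb on either side of Gt(ROSA)26Sor, with Thumpd3 and Setd5 left out. The annotation places 74 genes there, of which 43 were in the count table and 30 passed the filter, 4 on the Thumpd3 side and 26 on the Setd5 side. None of the 30 was called in the edgeR fit at an adjusted p under 0.05, where 0.0788% of all tested genes were called (13 of 16496). The smallest adjusted p was 0.164. At an unadjusted p under 0.05 there were 5 of 30, against 16.4% of all tested genes. The median log2 difference of the 30 was 0.03, with 19 above 0 and 11 below, beside a median of 0.0018 over all tested genes. None of the 30 had groups without overlap, which held for 2.81% of all tested genes (464 of 16496).

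The nearest tested neighbours bracket the locus. Srgap3, a protein of the Slit-Robo pathway, lies 120.2 kb beyond the end of Gt(ROSA)26Sor on the Thumpd3 side and was at 37.4 to 44.8 CPM in Control and 38 to 54.7 CPM in BMAd-DTA. Its log2 difference was 0.18 ± 0.098 (SE, edgeR adjusted p = 0.371). Lhfpl4, a tetraspan protein of inhibitory synapses, lies 90.8 kb away on the Setd5 side and was scarcely detected, at 0.353 to 0.768 CPM in Control and 0.0567 to 0.874 CPM in BMAd-DTA. The groups overlapped for both.

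The extremes of the neighbourhood lay farther out. Cidec, a lipid droplet protein of adipocytes and itself one of the 13 adipocyte markers, lies 347.3 kb away and was at 26.8 to 62.9 CPM in Control and 4.3 to 35.5 CPM in BMAd-DTA, with a log2 difference of -1.20 ± 0.48 (SE, edgeR adjusted p = 0.225). Of the 7 BMAd-DTA libraries, 4 were below every Control library. At the other end, Cav3, the caveolin of muscle, lies 594.6 kb away on the Thumpd3 side and had a log2 difference of 0.65 ± 0.53 (SE, edgeR adjusted p = 0.594) at a mean of 9.273 counts.

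**Figure D4:**
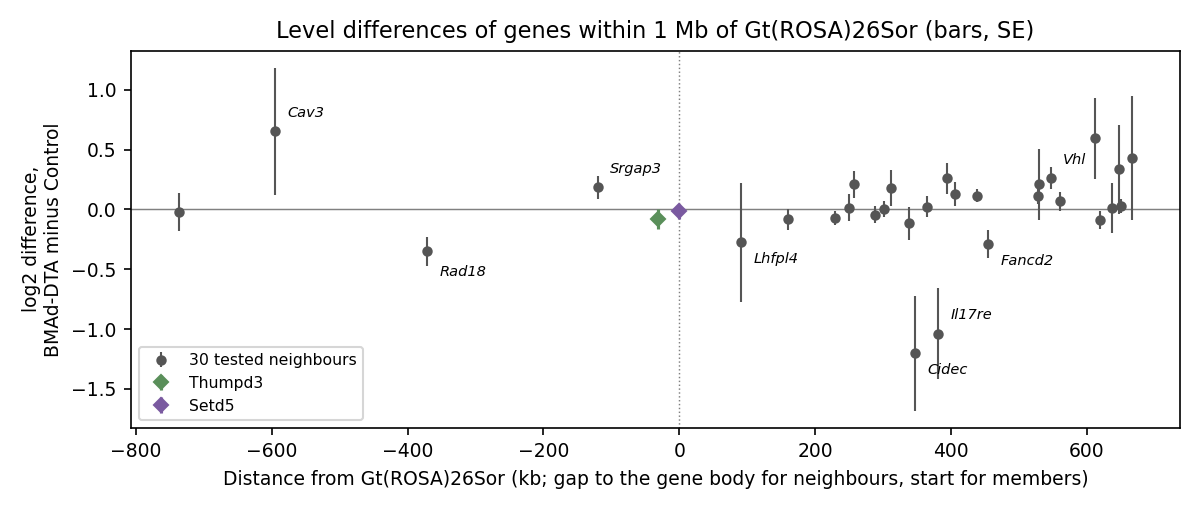
Fitted log2 difference (BMAd-DTA minus Control, bars SE) of the 30 tested neighbours against their distance in kb from Gt(ROSA)26Sor, with Thumpd3 and Setd5 as diamonds at their starts. Cidec and Il17re lie lowest, at -1.20 and -1.04, Thumpd3 and Setd5 lie at -0.08 and -0.01, and no neighbour passed the adjusted threshold.

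To find which genes followed Gt(ROSA)26Sor from library to library, the 12973 tested genes that averaged 50 counts or more were ordered by Pearson's r of log2 CPM over the 11 libraries. These points share their library sizes, and r rests on few high libraries, so it is given with no p. The median r was -0.01. The 5 genes most like it were Grasp, a scaffold protein of receptor trafficking (r = 0.91), Hdhd5, a hydrolase-domain protein (0.91), Eno2, a glycolytic enolase of neurons (0.88), Pianp, a membrane ligand of a paired immune receptor (0.88), and Mrm2, a methyltransferase of mitochondrial ribosomal RNA (0.86). Without BMAd-DTA replicates 4 and 5, over 9 libraries, r was 0.87, 0.84, 0.71, 0.49 and 0.74 in the same order. These 9 libraries pool both groups. Gt(ROSA)26Sor held 25 pairs in BMAd-DTA replicate 3, 0 in replicate 7 and 2 to 9 in the rest. Counts of 2 to 9 pairs did not differ beyond counting error, so this r also rests on few libraries.

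Of these 5 genes, 3 are on chromosome 6, at 7.45 Mb (Hdhd5), 11.69 Mb (Eno2) and 11.92 Mb (Pianp) beyond the start of Gt(ROSA)26Sor on the Setd5 side. Pianp had the widest range. Its counts were 58, 53, 51 and 40 in Control libraries 1 to 4 and 56, 118, 145, 602, 618, 107 and 75 in BMAd-DTA libraries 1 to 7. Replicates 4 and 5 were again the highest by far, followed by replicate 3, and replicate 1 alone had a count within the Control range. Its log2 difference was 2.28 ± 0.7 (SE) and did not pass the test (edgeR adjusted p = 0.131).

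The other most alike genes moved less. Hdhd5 held 219 to 235 counts in Control and 320 and 265 in BMAd-DTA replicates 4 and 5. Replicate 3 held 270, and the other 4 held 215 to 239. Grasp held 127 to 146 counts in Control and 188, 254 and 185 in replicates 3, 4 and 5. BMAd-DTA replicates 1, 2, 6 and 7 held 167, 135, 153 and 134, so replicates 1 and 6 were also above every Control count. None of the 5 passed the adjusted threshold, with adjusted p in the edgeR fit from 0.131 to 0.569.

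At the other end of the ranking were Pacs1, a sorting protein of the trans-Golgi network (r = -0.90), Trip4, a transcriptional coactivator (-0.83), the processed pseudogene Gm6180 (-0.82), Asb7, a substrate adaptor of a ubiquitin ligase (-0.81), and Nudcd1 (-0.81). Pacs1 held 2512 to 3121 counts in Control and 2557 and 2189 in BMAd-DTA replicates 4 and 5, with 3083 in replicate 7, the library with 0 pairs of Gt(ROSA)26Sor. Without replicates 4 and 5 their r was -0.81, -0.85, -0.62, -0.51 and -0.46, with the same limits as above.

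Of the 50 genes with the highest r, a number chosen after the values were seen, 8 were on chromosome 6 (16%), which held 746 of the 12973 genes (5.75%). Of the 50 with the lowest r, 3 were on chromosome 6. The 8 lay from 70.37 Mb before to 11.92 Mb beyond Gt(ROSA)26Sor. Within 15 Mb of it, 4 of 170 genes (2.35%) had an r of at least 0.75, against 62 of all 12973 genes (0.478%), and the median r of the 170 was -0.02. Both limits were chosen after the values were seen. The nearest of the 4 was Il17rc, a subunit of the interleukin-17 receptor and one of the 30 neighbours, with r = 0.83. Its level was 5.54 to 6.56 CPM in Control and 5.44 to 8.17 CPM in BMAd-DTA, with 6 of 7 libraries above every Control library and 1 below. Its log2 difference was 0.26 ± 0.13 (SE, edgeR adjusted p = 0.353).

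Further genes outside the ranking rule, chosen after their values were seen, singled out the same libraries more sharply. Gm13394, a processed pseudogene on chromosome 2, had 896 and 819 counts in BMAd-DTA replicates 4 and 5 and 0 to 8 in the other 9 libraries. C1s2, a complement serine protease 11.56 Mb from Gt(ROSA)26Sor, had 85 and 64 counts in them and 0 to 13 elsewhere, and its neighbour C1rb had 20 and 27 counts and 0 to 3 elsewhere. Replicate 3, intermediate for Gt(ROSA)26Sor, had 8, 5 and 0 counts of these 3 genes. A pseudogene and the C1s and C1r paralogs have close copies, and read pairs that map to several places are not in the counts, so their values are less certain.

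**Figure D5:**
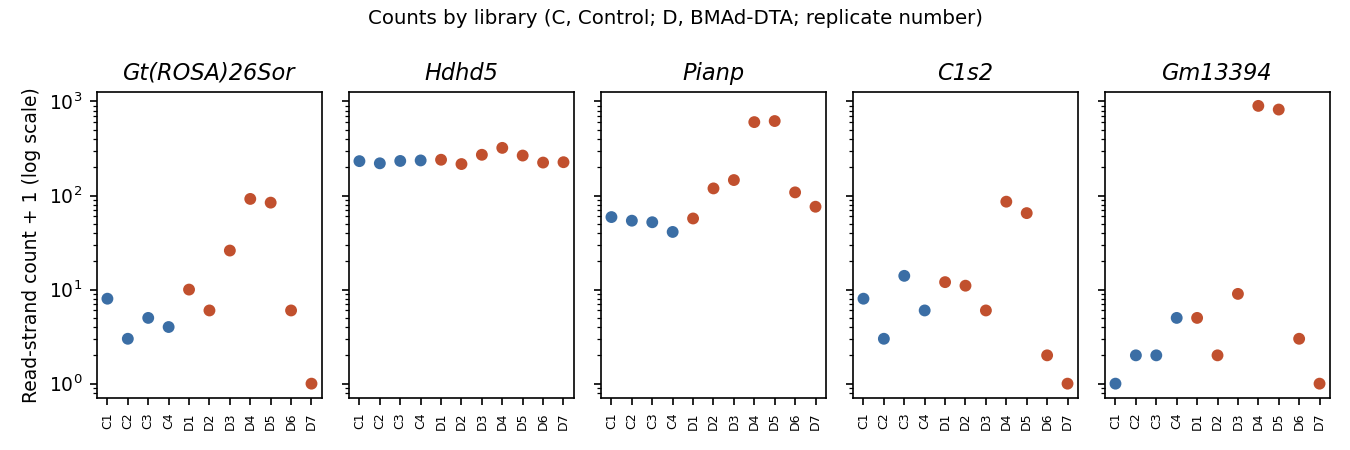
Counts plus 1 on a log axis in each Control (C) and BMAd-DTA (D) library, by replicate number, for Gt(ROSA)26Sor, 2 of the genes most like it (Hdhd5 and Pianp) and C1s2 and Gm13394, the last 2 chosen after their values were seen. BMAd-DTA replicates 4 and 5 are high in the panels of Gt(ROSA)26Sor, Pianp, C1s2 and Gm13394, and Hdhd5 spans only 215 to 320 counts.

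RNA levels of the toxin's target gene and of the genes that make the residue it modifies were examined as well. The action of the toxin on the protein was not measured. Diphtheria toxin A modifies diphthamide, an altered histidine of the elongation factor EEF2, and thereby stops translation, and the DPH enzymes make that residue. Of the 8 genes of this list all were tested, and 0 were called in the edgeR fit at the adjusted threshold, which 0.0788% of all tested genes passed, and 0 at an unadjusted p under 0.05, which 16.4% passed. Their median log2 difference was -0.09, with 2 above 0 and 6 below. Eef2, the most abundant, was at 2510 ± 94 CPM (SD, n = 4) in Control and 2490 ± 91.9 CPM (SD, n = 7) in BMAd-DTA, with a log2 difference of -0.01 ± 0.068 (SE). Dph7, the methylesterase of the pathway, had the largest log2 difference (0.13 ± 0.11, SE) and Dph5, its methyltransferase, the smallest (-0.19 ± 0.14, SE).

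Relatives and partners of THUMPD3 in tRNA guanosine methylation were measured next. Of 8 genes tested, 0 were called at either threshold (0.0788% and 16.4% of all tested genes), and the median log2 difference was 0.01. Trmt112, the activating partner of THUMPD3 and other methyltransferases, was at 31.8 ± 1.81 CPM (SD, n = 4) in Control and 35.8 ± 3.44 CPM (SD, n = 7) in BMAd-DTA, the largest log2 difference of the list at 0.17 ± 0.082 (SE, edgeR adjusted p = 0.319). Trmt10a, which methylates another guanosine, had the smallest, -0.34 ± 0.16 (SE, edgeR adjusted p = 0.307). The most abundant, Trmt1, was at 49 ± 5.23 CPM (SD, n = 4) and 48.3 ± 4.71 CPM (SD, n = 7).

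Of 13 relatives and partners of SETD5, all tested, 0 were called at either threshold (0.0788% and 16.4% of all tested genes), and the median log2 difference was -0.05, with 3 above 0 and 10 below. Kmt2e, the closest relative of Setd5, was at 313 ± 17.9 CPM (SD, n = 4) in Control and 303 ± 36.4 CPM (SD, n = 7) in BMAd-DTA. Ncor1, the corepressor scaffold and the most abundant of the list, was at 419 ± 29.8 CPM (SD, n = 4) and 385 ± 35.8 CPM (SD, n = 7). The largest log2 difference was that of the deacetylase Hdac3, 0.06 ± 0.059 (SE), and the smallest that of Leo1, a subunit of the PAF1 complex, -0.13 ± 0.11 (SE). DESeq2 on all libraries also called 0 genes in the 3 lists and in the neighbourhood. Over all 22600 genes of the count table it called 845 (433 higher, 412 lower).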

How the data were processed

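Total RNA of whole distal tibiae had been used for stranded, paired-end mRNA sequencing of 4 Control and 7 BMAd-DTA mice. According to the submitters' processing notes and the study's methods, the authors checked reads with FastQC 0.11.9, aligned them to mm10 with STAR and used DESeq2. The authors deposited raw counts of read pairs per gene, without normalization, per library for 3 strand settings (no strand and each strand) and as 1 merged table that equals the read-strand setting. The annotation release behind the counts is not given in the sources used here. Totals of the merged table were 16969529 to 18637663 counts per library, and the read strand held 95.9% to 96.3% of stranded counts. Pairs on no gene (6.58% to 8.44%) and ambiguous, unmapped and multimapping pairs were left out.

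The members and gene lists were chosen with earlier results of these data known. Counts were fitted in R 4.3.3 with edgeR 4.0.16 (filterByExpr, TMM, quasi-likelihood test, two-sided, Benjamini-Hochberg over 16496 genes). A standard error is the log2 difference divided by the square root of F. CPM use TMM library sizes, and log2 CPM a prior count of 2. Positions and exons came from GENCODE M21 on GRCm38, the assembly of mm10, and sequences from its transcripts. Genes were named by rule: the members, the driver genes Adipoq and Sp7, the nearest and most extreme neighbours, the most extreme and most abundant genes of each list with a few set partners, the 5 genes most and least like Gt(ROSA)26Sor, and the extremes of the reference genes. Exceptions are marked in the text. Correlations with cell type scores had been planned and were not computed, because the levels fell into clusters. Alternatives were DESeq2 1.42.0, other scalings, no filter, counts without strand, a skeletal muscle covariate, a narrower window and each library left out. The scripts were tested on simulated data. The 27 pairs of libraries of 1 group all differed by more than sampling noise (chi-square of at least 18.3 per gene), so none was counted as a duplicate.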

Additional observations from a re-analysis of the deposited data

Results flagged for a closer look

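Dixon's ratio was computed in each group for 52 combinations of a group and a measure of the members and named genes, and 3 passed the 95% critical value, where chance passes about 1 in 20. BMAd-DTA replicate 7 had 109 read pairs on the other strand of Gt(ROSA)26Sor, against 68 to 82 in the other 6 libraries of the group. It is also the library with 0 pairs on the gene's own strand, and its Thumpd3 count of 510 was the highest of the group. Control replicate 2 had 2 read pairs on the other strand of Thumpd3, against 0 in the other 3 Control libraries. Beside 3 counts of 0, any count above 0 gives a ratio of 1, so this pass carries no weight. Pianp stood at 2.07 CPM in Control replicate 4, below the 3.01 to 3.2 CPM of the other 3. BMAd-DTA replicates 4 and 5 did not pass for Gt(ROSA)26Sor, because each lies beside the other.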

How the results depend on the processing

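The log2 ratio of mean CPM of Gt(ROSA)26Sor was 2.97, and 2.44 to 3.37 with 1 library left out. With BMAd-DTA replicates 4 and 5 left out together, an alternative chosen after seeing the data, it was 1.18. It stayed above 0 in all 16 alternatives that gave a value, but each of them kept BMAd-DTA replicate 3, 4 or 5. DESeq2 and the covariate gave none on this scale. BMAd-DTA replicates 1, 2, 6 and 7 lay at 0.53, 0.287, 0.294 and 0 CPM, beside 0.118 to 0.386 CPM in Control. The gene was picked for its uneven counts, so these ratios are a description. The log2 difference of Thumpd3 was -0.13 to -0.02 and that of Setd5 -0.06 to 0.02 over 18 alternatives each, and none moved them by more than the SD between libraries. The neighbourhood (also within 500 kb) and the 3 gene lists held 0 called genes in every alternative, including those in which no gene of the whole table was called.

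The count of called genes over the whole table was unstable: 13 (12 higher, 1 lower), 845 with DESeq2, 20 with RLE size factors, 3 with the skeletal muscle score as a covariate, 0 without BMAd-DTA replicates 4 and 5, and 0 to 292 with 1 library left out. It was 292 without Control replicate 3, 89 without Control replicate 4, 8 without BMAd-DTA replicate 3, 3 without BMAd-DTA replicate 4, and 0 without Control replicate 1 or 2 or BMAd-DTA replicate 1 or 6. The cause was not tested. Each library is a different mouse, and no pairing of mice across the groups is given, so no paired analysis was possible. The labels give no replicate numbers, and those used here only name the mice. At this depth 3 counts of Gt(ROSA)26Sor are 0.156 to 0.177 CPM. The planned correlations with cell type scores and their alternatives were not run.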
